A study of Mus musculus with 4 samples.

Results

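This account covers 10 genes of the brain extracellular matrix: the chondroitin sulfate proteoglycans Ncan, Bcan and Vcan, the link protein gene Hapln1, the tenascins Tnc and Tnr, and the secreted proteins Spp1, Fbln2, Thbs1 and Fn1. Members were the probes that carry these gene names in the array files, where Ncan is listed as Cspg3 and Vcan as Cspg2. They came to 22 of 41174 probes, and each of the 10 genes had at least 1 probe that passed the filter on dim signals. Of the 22 probes 19 passed. The other 3, of Vcan, Hapln1 and Thbs1, were not well above background in any channel.

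The RNA came from neurospheres, free-floating cultures of mouse neural stem cells kept in serum-free medium with EGF. Mutant RNA of the Dll1 lines Dll1-3 and Dll1-5 was hybridised against wild-type RNA on 4 Agilent arrays of 2 colours, 2 arrays per line. On replicate 1 the mutant RNA carried the dye Cy5, and on replicate 2 it carried Cy3. Mutant and wild-type cells alike came from 129/Sv mice crossed with C57BL/6. Each RNA was a pool (the design text gives n = 3, without saying of what). The design text also states 2 biological replicates, each dye-swapped. With 4 arrays, a line was counted here as 1 replicate (n = 2 lines), its 2 arrays being read as a dye swap. Whether these 2 arrays shared their RNA pools is not settled by the labels. The growth protocols name a wild type for each line, so the wild-type cultures of the Dll1-3 and the Dll1-5 arrays may differ. The sources used here do not give age, passage, the altered part of Dll1 or whether a line is 1 clone. Each value is the log2 of mutant over wild-type signal, called a ratio below; the error of a line is the distance of its arrays from their mean, and that of both lines is the SD between line means. P-values are from limma, adjusted by the Benjamini-Hochberg method over 23097 genes, and measure the spread between 2 lines only, not the spread of wild-type pools.

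In the adult and developing brain the matrix is built on hyaluronan, a long sugar chain. Lecticans such as neurocan (Ncan), brevican (Bcan) and versican (Vcan) bind it at one end, link proteins such as Hapln1 fasten that bond, and tenascins join the other ends of lecticans to each other. Neural stem cells, astrocytes and oligodendrocyte progenitors make much of this matrix. Matricellular proteins such as osteopontin (Spp1) and thrombospondin 1 (Thbs1) signal through integrins and other receptors rather than bear load, and fibronectin (Fn1) and fibulin 2 (Fbln2) are matrix glycoproteins. Dll1 is a ligand of Notch receptors, whose signal reaches the genome through the DNA-binding protein RBPJ.

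The arrays compared cells with and without the Dll1 mutation. Among the members, the lecticans Ncan and Bcan were lower in mutant RNA and Spp1 was higher, each at least 2-fold on all 4 arrays. Over both lines Ncan was 13.0-fold lower, Bcan 4.18-fold lower and Spp1 7.83-fold higher. Tnc was 2.26-fold higher, but was under 2-fold on 1 of the 4 arrays. Fbln2 was 12.7-fold higher in Dll1-5 and 1.61-fold higher in Dll1-3, and Vcan stood on opposite sides of wild type in the lines. Hapln1 and Thbs1, whose probes read near background, stayed within 0.35 of 0 on all 4 arrays with the main processing, which compresses dim ratios. With the scanner software's own ratios the arrays ran from -0.33 to 0.68 for Hapln1 and from -0.24 to 0.99 for Thbs1. In bulk RNA of this kind, fewer cells of a type and less RNA per cell cannot be told apart.

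Of the 10 members 1 was at least 2-fold higher on all 4 arrays, where 1.71% of 22913 genes were, and 2 were at least 2-fold lower, where 2.77% of genes were. The members were picked with earlier results of these arrays known, so these shares describe them and test nothing. No member passed an adjusted p of 0.05 in limma, and neither did any other gene (0% of genes); the smallest adjusted p over all genes was 0.0753. Leaving out 1 array could end this: without Dll1-3 replicate 1 limma called 1674 genes, and without Dll1-5 replicate 2 it called 1660, with Ncan, Bcan, Tnc and Spp1 among them both times. At an unadjusted p under 0.05, limma called 2 members higher (Tnc and Spp1) and 3 lower (Ncan, Bcan and Tnr), against 12% and 15.5% of all genes. The median log2 ratio of the members was 0.03, that of all genes 0.01. Their median absolute log2 ratio was 0.79, against 0.19 for all genes, and their median SD between lines 0.37, against 0.12.

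**Figure D1:**
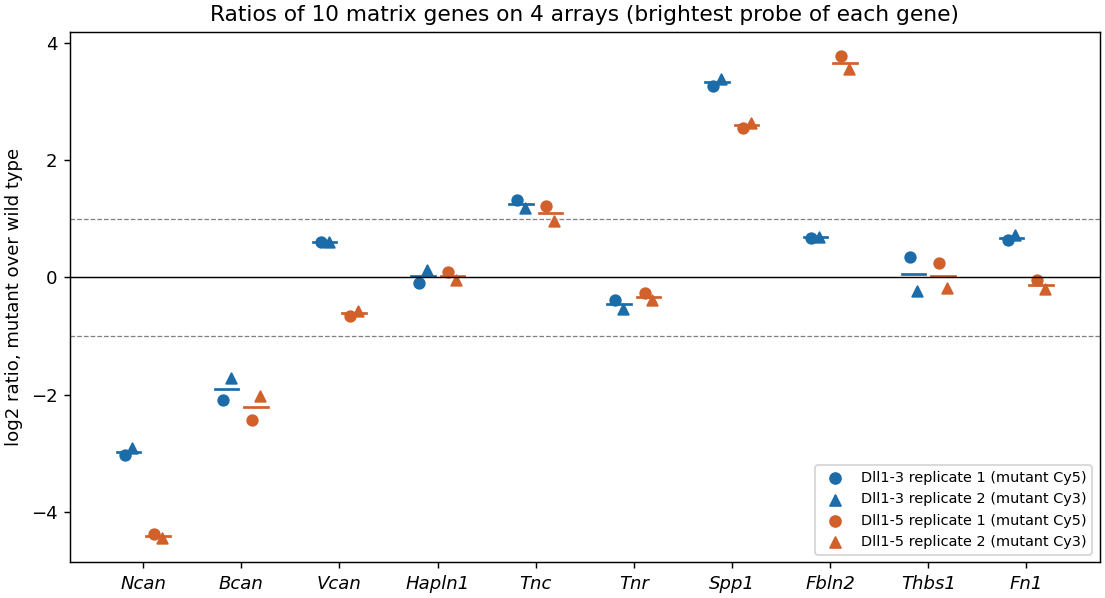
Log2 ratio of mutant over wild type for the probe that represents each of the 10 genes, 1 point per array, blue for Dll1-3 and orange for Dll1-5, circles where the mutant RNA carried Cy5 and triangles where it carried Cy3; short lines are line means and dashed lines mark 2-fold. Ncan and Bcan lie below and Spp1 above the dashed lines on every array, Fbln2 does so in Dll1-5 only, and Vcan lies on opposite sides of 0.

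Genome windows upstream of 6 members are shown because the results turn on these genes. Each is the 250 bases before the outermost RefSeq start of the gene in assembly GRCm38.p6, 5′ to 3′ along the gene's own strand; 8 of the 10 members had such a window. Capitals mark TGGGAA, the core letters bound by RBPJ, or its reverse complement TTCCCA. The windows are chr8:70120845-70121094 on the minus strand for Ncan, chr3:88000357-88000606 on the minus strand for Bcan, chr13:89742513-89742762 on the minus strand for Vcan, chr4:64047016-64047265 on the minus strand for Tnc, chr5:104434861-104435110 on the plus strand for Spp1 and chr6:91212514-91212763 on the plus strand for Fbln2.
Ncan: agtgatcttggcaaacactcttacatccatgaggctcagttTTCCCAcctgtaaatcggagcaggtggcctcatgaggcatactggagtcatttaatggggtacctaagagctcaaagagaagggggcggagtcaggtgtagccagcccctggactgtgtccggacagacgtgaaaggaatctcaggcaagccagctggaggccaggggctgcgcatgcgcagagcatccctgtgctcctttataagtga
Bcan: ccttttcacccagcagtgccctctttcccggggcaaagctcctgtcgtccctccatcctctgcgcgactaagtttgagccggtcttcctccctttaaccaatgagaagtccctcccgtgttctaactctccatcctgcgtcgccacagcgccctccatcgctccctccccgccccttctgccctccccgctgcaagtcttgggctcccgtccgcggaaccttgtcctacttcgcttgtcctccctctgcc
Vcan: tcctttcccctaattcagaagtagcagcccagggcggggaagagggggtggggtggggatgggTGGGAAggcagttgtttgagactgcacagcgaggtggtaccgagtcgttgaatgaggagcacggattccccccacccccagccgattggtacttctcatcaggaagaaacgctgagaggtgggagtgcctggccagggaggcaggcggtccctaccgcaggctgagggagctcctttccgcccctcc
Tnc: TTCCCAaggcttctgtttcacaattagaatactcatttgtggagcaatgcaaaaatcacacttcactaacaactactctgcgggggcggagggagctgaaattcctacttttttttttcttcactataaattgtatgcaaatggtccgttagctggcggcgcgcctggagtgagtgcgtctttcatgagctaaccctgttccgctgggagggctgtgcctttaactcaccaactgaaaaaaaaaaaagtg
Spp1: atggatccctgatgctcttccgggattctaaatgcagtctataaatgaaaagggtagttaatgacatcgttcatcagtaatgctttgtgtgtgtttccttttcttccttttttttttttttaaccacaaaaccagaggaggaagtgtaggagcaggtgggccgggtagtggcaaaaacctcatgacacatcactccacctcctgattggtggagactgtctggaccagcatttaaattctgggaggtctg
Fbln2: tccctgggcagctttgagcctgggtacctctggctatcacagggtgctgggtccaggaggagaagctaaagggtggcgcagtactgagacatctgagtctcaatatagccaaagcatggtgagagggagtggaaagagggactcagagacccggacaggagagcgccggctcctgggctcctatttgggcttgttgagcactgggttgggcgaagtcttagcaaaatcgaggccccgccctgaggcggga
Searched on both strands, TGGGAA was found in 4 of the 8 members' windows, those of Ncan, Vcan, Tnc and Tnr, and in 21.6% of 32851 promoter windows of the same length. The match began 209 bases before the start in Ncan, 187 in Vcan, 250 in Tnc and 39 in Tnr, counted at its first base on the gene's strand. The windows of Bcan, Spp1, Fbln2 and Hapln1 did not hold these letters. The genes with a match included Ncan and Tnr, which were lower in mutant RNA, Tnc, which was higher, and Vcan, which was higher in one line and lower in the other. The AP-1 letters TGANTCA, which do not overlap the first motif, were found in 0 of the 8 windows and in 6.75% of all. A match of letters is a description and shows no binding.

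Ncan encodes neurocan, a secreted lectican made by neurons and glia of the developing brain. Its only probe lies on chromosome 8 from 69246083 to 69246142, in the array file's coordinates, as are all probe positions below; the genome build of these coordinates was not stated. The log2 ratio was -3.04 and -2.92 in Dll1-3, against -4.38 and -4.45 in Dll1-5. All 4 arrays were low, and those of Dll1-5 lay below those of Dll1-3. The line means were -2.98 ± 0.06 and -4.42 ± 0.03, which makes Ncan 7.89-fold lower in Dll1-3 and 21.3-fold lower in Dll1-5, and the mean over both was -3.70 (SD 1.02, n = 2; limma adjusted p = 0.0793). As log2 normalised intensity, wild-type RNA read between 15.31 and 15.43 on the 4 arrays, Dll1-3 RNA 12.34 and 12.51, and Dll1-5 RNA 10.97 and 10.86. Ncan RNA thus stayed well above background in both mutants. Without the intensity-dependent dye correction, using median centring, the arrays read -1.48, -3.25, -3.21 and -5.09. Ncan stayed at least 2-fold lower on each, but the lines then overlapped.

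Bcan encodes brevican, a lectican of glia that exists in secreted and membrane-anchored forms. Its only probe lies on chromosome 3 from 87731464 to 87731523. The ratio was -2.10 and -1.71 in Dll1-3, against -2.43 and -2.02 in Dll1-5. All 4 were low, the lines overlapped, and in each line the array with mutant RNA in Cy5 was the lower one. The means were -1.90 ± 0.19 in Dll1-3 and -2.22 ± 0.20 in Dll1-5, and -2.06 over both (SD 0.23, n = 2; limma adjusted p = 0.0753). Without the intensity-dependent dye correction, using median centring, the arrays read -0.49, -2.04, -1.17 and -2.63, so Bcan stayed lower on each but was no longer 2-fold lower on all 4.

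Vcan encodes versican, a lectican of migrating and proliferating cells that exists as several splice forms. The probe that represents it, on chromosome 13 from 85772114 to 85772173, gave 0.61 and 0.60 in Dll1-3, against -0.65 and -0.58 in Dll1-5. Both Dll1-3 arrays were above wild type and both Dll1-5 arrays below it, by about the same distance. The means were 0.61 in Dll1-3, 1.52-fold higher than wild type, and -0.61 in Dll1-5, 1.53-fold lower; the mean of 0.00 (SD 0.86, n = 2; limma adjusted p = 0.996) therefore describes neither line. The other 3 Vcan probes that passed did not show this split. They lie between 85825322 and 85849172 on the same chromosome, and their line means ran from -0.10 to -0.04 in Dll1-3 and from -0.19 to 0.05 in Dll1-5. Of these 3, 1 was well above background in every channel, at -0.09 and -0.19. The split of Vcan thus rests on 1 probe.

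A difference was not detectable for Hapln1, the link protein that ties lecticans to hyaluronan. Its passing probe gave -0.09 and 0.13 in Dll1-3 and 0.09 and -0.04 in Dll1-5. The mean was 0.02 (SD 0.01, n = 2; limma adjusted p = 0.891). In each line 1 array lay on either side of 0. The probe was well above background in all 4 mutant channels and in 3 of the 4 wild-type channels.

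**Figure D2:**
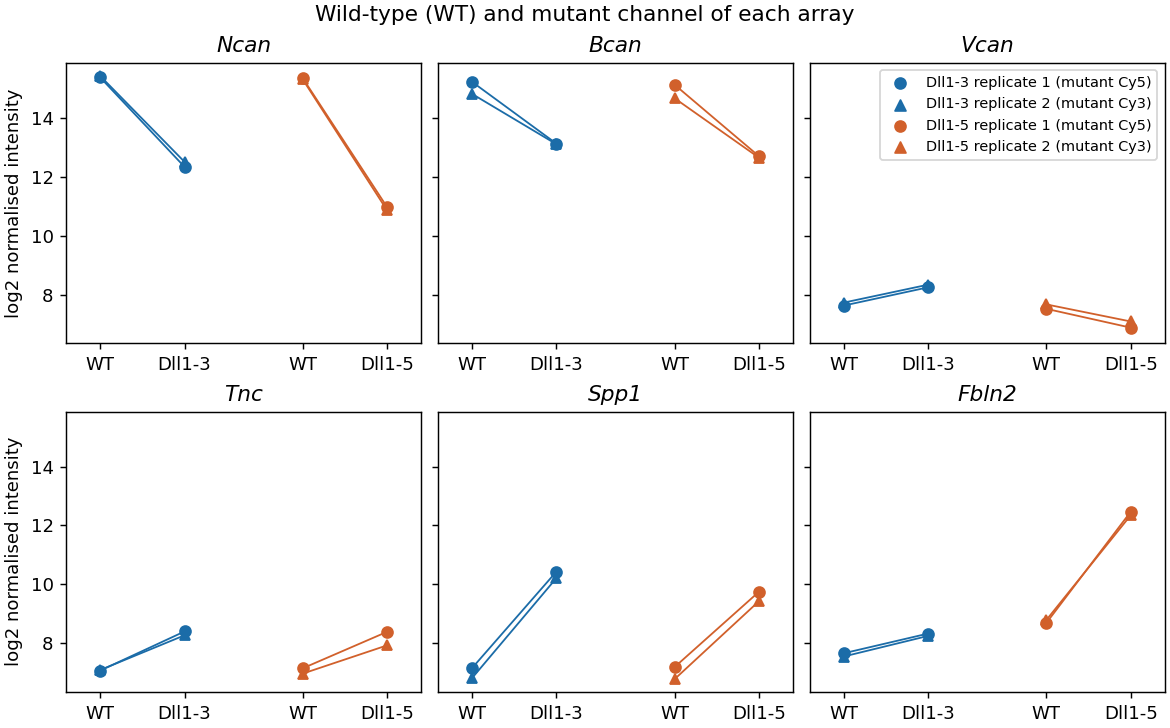
Log2 normalised intensity of the wild-type (WT) and the mutant channel of each array, joined by a line, for 6 genes; blue is Dll1-3 and orange Dll1-5, circles are arrays with mutant RNA in Cy5 and triangles those with mutant RNA in Cy3. Wild-type RNA read alike on the arrays of both lines for the genes shown except Fbln2, whose wild-type channel was between 8.69 and 8.79 on the Dll1-5 arrays and between 7.55 and 7.66 on the Dll1-3 arrays.

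Tnc encodes tenascin C, a glycoprotein of the neural stem cell niche and of reactive and tumour matrix. The representative probe, on chromosome 4 from 63051530 to 63051590, gave 1.33 and 1.18 in Dll1-3, against 1.23 and 0.97 in Dll1-5. All 4 were high and the lines overlapped. Tnc was 2.39-fold higher in Dll1-3 and 2.14-fold higher in Dll1-5, and the mean over both lines was 1.18 (SD 0.11, n = 2; limma adjusted p = 0.0753). The size depended on the probe: the other 3 Tnc probes had means over both lines of 0.18, 0.19 and 0.23, so the average of all 4 was 0.44. Of these 3 probes 2 were well above background in every channel; the other was so in 1 of the 4 wild-type channels.

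Tnr encodes tenascin R, a brevican-binding tenascin best known from oligodendrocytes and perineuronal nets. Its only probe gave -0.39 and -0.53 in Dll1-3 and -0.27 and -0.39 in Dll1-5, all low by a small amount, with a mean of -0.39 (SD 0.09, n = 2; limma adjusted p = 0.131). The probe was well above background in all 4 wild-type channels but in only 1 of the 4 mutant channels, on a Dll1-5 array. In Dll1-3, where mutant RNA was not well above background on either array, Tnr read 1.38-fold lower. That line mean was -0.46 on the log2 scale, and -0.41 without background correction. With the scanner software's own ratios the mean was -1.75, so the size of the Tnr difference is not settled by this probe.

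**Figure D3:**
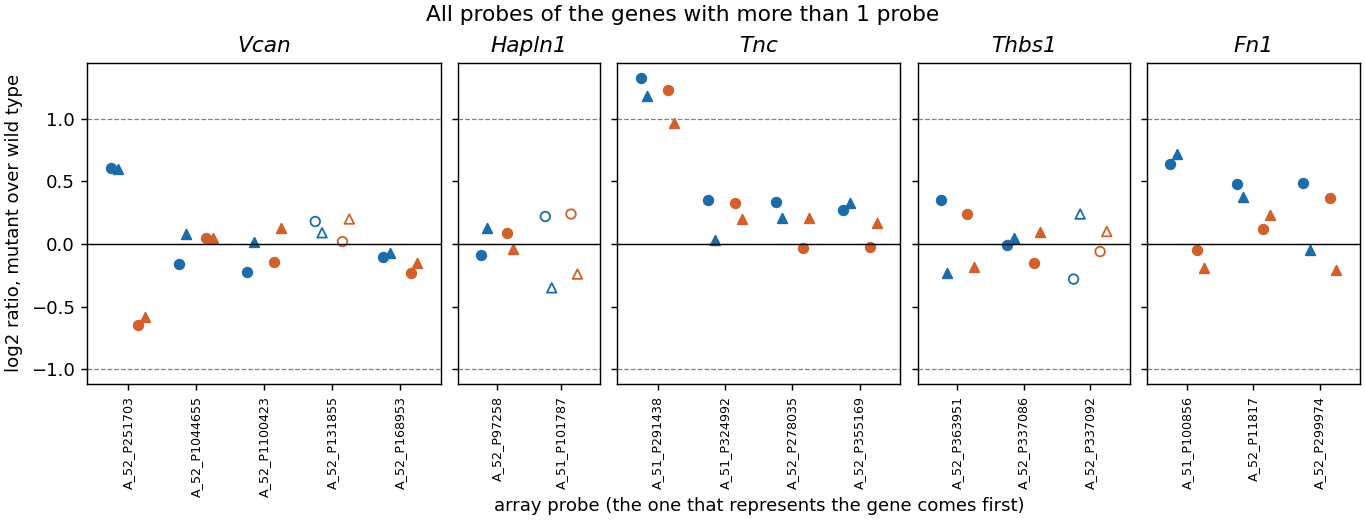
Log2 ratio of mutant over wild type for every probe of the 5 genes that have more than 1, the probe that represents the gene first; colours and shapes are by line and dye as in the plot of ratios by gene, open symbols are the 3 probes that did not pass the filter, and dashed lines mark 2-fold. The split of Vcan between the lines and the size of the Tnc ratio appear on the first probe of each gene and not on the others.

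Of the 5 members with more than 1 probe, 4 had more than 1 that passed, namely Vcan, Tnc, Thbs1 and Fn1. In all 4 the representative probe, chosen for its signal, was also the one nearest the 3′ end of the gene in the file's coordinates, as it was for 64.9% of 7293 genes with more than 1 placed probe. What part position plays in the differences between probes was not tested.

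Spp1 encodes osteopontin, a secreted phosphoprotein that binds integrins and CD44. Its only probe lies on chromosome 5 from 103476641 to 103476700. It gave 3.28 and 3.39 in Dll1-3, against 2.56 and 2.64 in Dll1-5. All 4 were high, and both Dll1-3 arrays exceeded both Dll1-5 arrays. Spp1 was 10.1-fold higher in Dll1-3 (3.34 ± 0.05) and 6.06-fold higher in Dll1-5 (2.60 ± 0.04), with a mean of 2.97 (SD 0.52, n = 2; limma adjusted p = 0.0753). With the scanner software's ratios the mean was 3.88 and the adjusted p = 0.0420 in limma. Over 17 alternatives the adjusted p in limma ran from 0.000288 to 0.0989. The low end came from a run that took the 4 arrays as separate samples, with the line as a random block, and not as 2 replicates. Osteopontin is also made by macrophages and microglia. Of 8 microglia and blood markers, 7 had a probe that passed, and Itgam was not well above background in any channel. Their mean log2 ratios ran from -0.06 to 0.07. At an unadjusted p under 0.05 in limma 0 of the 7 were called, against 12% of all genes as higher and 15.5% as lower. Their summed normalised intensity was 631 to 672 in wild-type RNA, 645 to 659 in Dll1-3 and 676 to 677 in Dll1-5. Aif1 was well above background in 2 of the 4 mutant and 2 of the 4 wild-type channels, Ptprc in 2 and 3. These markers read dim, and the main processing compresses dim ratios, so their ratios near 0 say little.

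Fbln2 encodes fibulin 2, a glycoprotein that binds fibronectin, aggrecan and versican. Its only probe lies on chromosome 6 from 91714998 to 91715057. Its ratio was 0.68 and 0.70 in Dll1-3, against 3.78 and 3.56 in Dll1-5. All 4 were above wild type, with a wide gap between the lines. The line means were 0.69 ± 0.01 and 3.67 ± 0.11, and the mean was 2.18 (SD 2.11, n = 2; limma adjusted p = 0.291). The wild-type channel moved as well. As log2 normalised intensity it read 7.66 and 7.55 beside Dll1-3 RNA, against 8.69 and 8.79 beside Dll1-5 RNA, differences of 1.03 and 1.23 within a dye. Of 22913 genes, Fbln2 was the only one whose wild-type channel was at least 2-fold higher on both Dll1-5 arrays, and 2 genes were at least 2-fold lower there. The median absolute difference of the wild-type channels between lines was 0.08 in Cy3 and 0.07 in Cy5. The mutant channels of Fbln2 differed by 4.13 and 4.10 in the same direction. The part of the wild-type channel in the Fbln2 ratio was not tested.

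Fn1 encodes fibronectin, which cells bind through integrins. Its representative probe, on chromosome 1 between 71886966 and 71889203, gave 0.64 and 0.72 in Dll1-3, against -0.05 and -0.19 in Dll1-5. The Dll1-3 arrays were higher than wild type and the Dll1-5 arrays close to it. The mean was 0.28 (SD 0.56, n = 2; limma adjusted p = 0.578). A second probe that was well above background in all channels gave 0.48 and 0.38 in Dll1-3 and 0.12 and 0.23 in Dll1-5. The order of the lines was the same on both of these probes, but the sign in Dll1-5 was not.

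Thbs1 encodes thrombospondin 1, an astrocyte-secreted protein that promotes synapse formation and binds CD47 and CD36. Its representative probe gave 0.35 and -0.23 in Dll1-3 and 0.24 and -0.18 in Dll1-5. In each line the array with mutant RNA in Cy5 was positive and the other negative, and the mean was 0.05 (SD 0.02, n = 2; limma adjusted p = 0.761). A difference for Thbs1 was not detectable at these signals.

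Fbln2 and Fn1 are also made by fibroblasts and mural cells. All 8 markers of those cells had a passing probe. At an unadjusted p under 0.05, limma called 1 lower and 0 higher, against 15.5% and 12% of all genes. Their means ran from -0.82 (Acta2) to 0.17 (Dcn). Acta2 was the marker called lower. Its other probes lay between -0.12 and 0.10, and the lowest mean among the other markers was -0.03 (Col3a1). The summed intensity of the 8 markers was 5866 to 6124 in wild-type RNA, 3859 to 3912 in Dll1-3 and 3664 to 3685 in Dll1-5. As no other marker had a mean under -0.03, the lower sum in mutant RNA reflects the Acta2 probe and not the markers as a group. Of 6 endothelial markers 5 passed, with means from -0.33 to 0.09. Their sum was 475 to 516 in wild-type RNA, 496 to 513 in Dll1-3 and 450 to 499 in Dll1-5. The endothelial markers thus read dim, where the main processing compresses ratios.

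The lines were then set against each other. Each line was counted as 1 replicate, so their difference was not tested. In Dll1-3, 2 members were at least 2-fold higher on both arrays (Tnc and Spp1), where 4.49% of genes were, and 2 were at least 2-fold lower (Ncan and Bcan), where 6.14% were. In Dll1-5, 2 were at least 2-fold higher (Spp1 and Fbln2), where 3.04% of genes were, and 2 lower (Ncan and Bcan), where 3.7% were. For 6 of the 10 members the arrays of the lines did not overlap, against 53.4% of all genes. For 3 of these the line means also differed at least 2-fold, against 4.47% of genes: as a ratio over wild type, Fbln2 was 7.91-fold higher in Dll1-5 than in Dll1-3, Ncan 2.71-fold lower and Vcan 2.33-fold lower. With median centring the arrays of the lines overlapped for Ncan, and 2 such members were left. For Fbln2 the wild-type channels differed too, by 1.03 and 1.23, and the mutant channels themselves lay 4.13 and 4.10 apart on the log2 scale. The smaller differences were those of Fn1, 1.74-fold lower in Dll1-5, Spp1, 1.67-fold lower, and Tnr, higher by 0.13 on the log2 scale. For Bcan, Tnc, Hapln1 and Thbs1 the arrays of the lines overlapped. Vcan and Fn1 were the 2 members of opposite sign between the lines, a pattern found in 10% of genes.

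**Figure D4:**
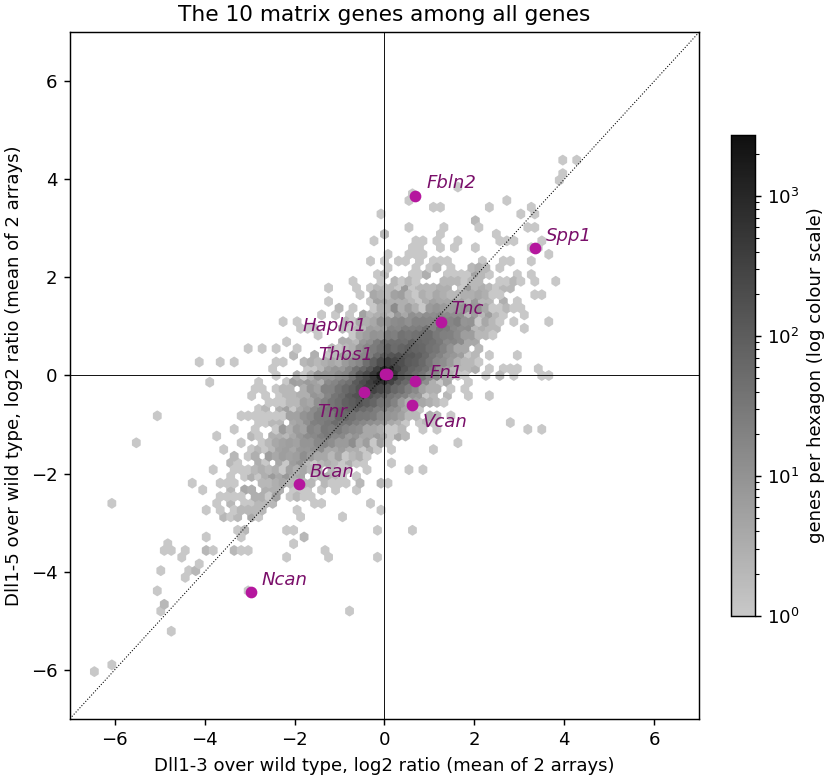
Mean log2 ratio over wild type in Dll1-5 (vertical) against Dll1-3 (horizontal); grey hexagons count all genes on a log colour scale, purple points are the 10 members, and the dotted line marks equal ratios. Fbln2 lies far above the dotted line, and Ncan and Vcan lie below it.

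Genes that build, bind or cut this matrix were read from 6 lists, which share some genes and were also drawn up with earlier results known. Over 138 genes tested, 6 were at least 2-fold higher and 16 at least 2-fold lower on all 4 arrays, and 116 were neither; the shares over all genes were 1.71% and 2.77%. None of them passed an adjusted p of 0.05 in limma; 14 were higher and 33 lower where the unadjusted p was under 0.05, against 12% and 15.5% of all genes. Their median was -0.05, against 0.01 over all genes.

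Among 16 genes of hyaluronan metabolism and link proteins, 1 was 2-fold higher on all arrays, 0 were lower and the median was 0.00. It was Cd44, the main hyaluronan receptor and also a receptor of osteopontin, at 1.85 in Dll1-3 and 1.35 in Dll1-5 (mean 1.60, SD 0.35, n = 2; limma adjusted p = 0.0782), with its other probes between 0.01 and 1.75. Of 21 other proteoglycans 1 was 2-fold higher and 3 lower, with a median of -0.09. Agrn, the heparan sulfate proteoglycan agrin, was at -2.04, with 1 of its 2 other probes of opposite sign, Cspg5, a transmembrane chondroitin sulfate proteoglycan, at -1.78 with its other probe at -1.13, and the glypican Gpc1 at -1.54. The NG2 proteoglycan gene Cspg4 was at 2.59, with its other probes between 0.25 and 1.42. None of 24 genes of chondroitin sulfate synthesis was 2-fold different on all arrays; limma gave 3 of them as higher and 4 as lower with an unadjusted p under 0.05, close to the 12% and 15.5% of all genes, and the median was 0.03.

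Of 35 other matricellular proteins and glycoproteins 1 was 2-fold higher and 3 lower on all 4 arrays, with a median of 0.02. Fbln1, of the same family as Fbln2, was at 3.19 in Dll1-3 and 2.32 in Dll1-5, so its order between the lines was the reverse of that of Fbln2. Sparc, a collagen-binding matricellular protein, was at -2.60, its relative Smoc1 at -2.49 and Sparcl1 at -1.46, where the wild-type signal was saturated on 2 arrays. The 26 receptors and binding partners of the members had 3 genes 2-fold higher and 6 lower, with a median of -0.40. Cntn1, an axonal adhesion protein bound by tenascin R, was at -4.96 in Dll1-3 and -3.99 in Dll1-5 (mean -4.48, SD 0.69, n = 2; limma adjusted p = 0.0753). Itgb8, an integrin subunit, had line means of -3.45 (Dll1-3) and -2.56 (Dll1-5), and Nlgn1, a synaptic protein that binds thrombospondin 1, had -3.49 and -2.44. For each gene the mutant signal was well above background on 3 arrays. The 3 other probes of Itgb8 lay between -0.74 and -0.18, and the other probe of Nlgn1 lay at -0.14. Lrp1, an endocytic receptor of thrombospondin, was at -2.31, with its other probe at -1.42. The 3 higher receptors were Cd44, Itga5, a subunit of the fibronectin receptor, at 1.23, and Tlr4, an innate immune receptor, at 1.11; the last 2 were named after their values were seen. Of 18 proteases and inhibitors 1 was 2-fold higher and 4 lower, with a median of -0.27: Timp3, an inhibitor of lectican-cleaving enzymes, was at -3.05, the versican-cleaving enzyme gene Adamts9 at -2.21 with its 2 other probes at -1.02 and -0.95, the plasminogen activator gene Plat at -1.77 with its 2 others between -1.61 and -0.75, and Timp2 at -1.57. The higher one was Timp1, an inhibitor of the same family as Timp2 and Timp3, at 1.47, with its 2 other probes at 0.80. Timp1 was named after its value was seen.

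**Figure D5:**
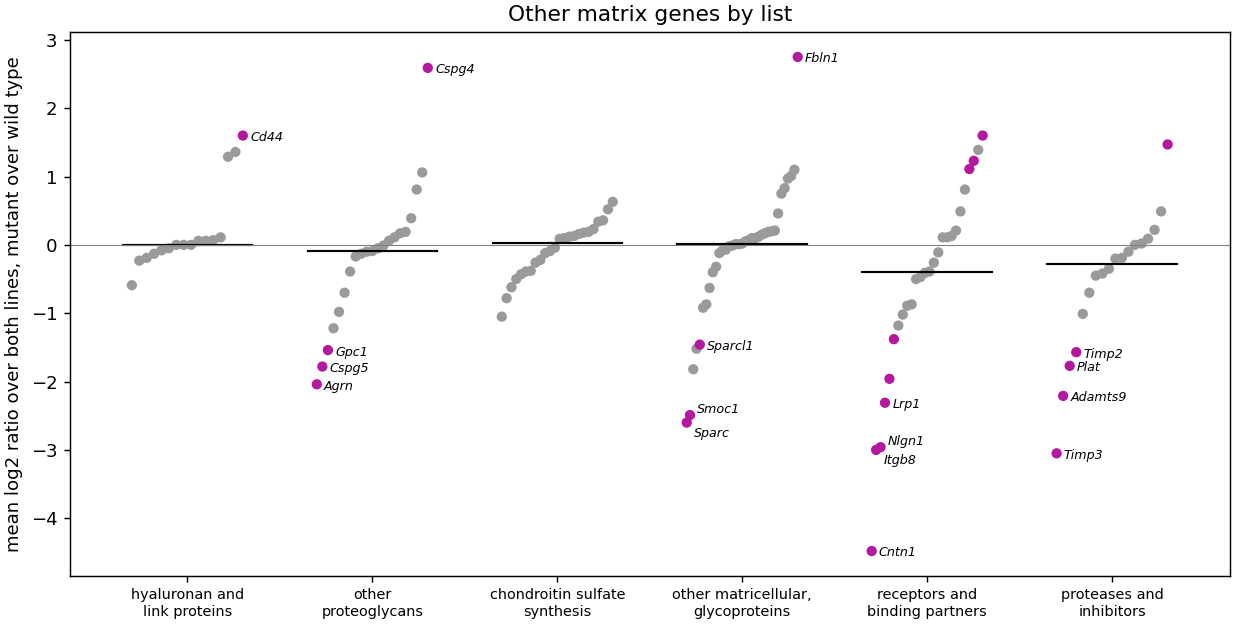
Mean log2 ratio over both lines of each gene of the 6 lists of other matrix genes, sorted within a list; purple points are genes at least 2-fold different in the same direction on all 4 arrays, black lines are list medians, and up to 4 genes per list are named. The medians lie between -0.40 and 0.03.

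The genes most like the lowest and the highest member were found by Euclidean distance over the 4 log2 ratios, clone names being passed over. Nearest to Ncan were Slc4a4 at a distance of 1.14, Bex4 at 1.32 and Plxnb1 at 1.35. Nearest to Spp1 were Trib3 at 0.19, Ifi27l2a at 0.41 and Gypc at 0.42. Among the genes so searched Ncan had no close neighbour: its 3 nearest had means between -3.45 and -3.41 and a smaller gap between the lines.

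For the series as a whole, each channel read 80.0% to 81.9% of probes well above background, and precision is limited by there being 4 arrays. Dll1, the targeted gene, had a ratio of -3.27 in Dll1-3 and -1.65 in Dll1-5. Whether its probe lies in the altered part of the gene is not known here, so this checks the labels only in part. The 10 neural stem and radial glia markers all had a passing probe, 0 were at least 2-fold higher and 2 lower on all 4 arrays, and their summed intensity was 99417 to 115895 in wild-type RNA, 62187 to 75908 in Dll1-3 and 79410 to 82719 in Dll1-5. The sum of the 6 astrocyte markers was 25478 to 30103 in wild-type RNA, 7164 to 7206 in Dll1-3 and 14055 to 15136 in Dll1-5, that of the 6 oligodendrocyte progenitor markers 37735 to 40268, 16669 to 17798 and 31375 to 34241, and that of the 6 neuron markers 14345 to 15037, 2960 to 3400 and 5705 to 5970. Within a list the markers differed. Mean log2 ratios ran from -4.08 (Gpr17) to 2.59 (Cspg4) over the progenitor markers and from -1.67 to -0.23 over the astrocyte markers. Among the neuron markers Map2 was at -1.99, Dcx at -1.74 and Tubb3 at -1.01, while Snap25, Rbfox3 and Stmn2 lay between 0 and 0.09. Ncan, Bcan and Tnr are expressed by cells of these types. The part of cell makeup in their ratios was not tested.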

How the data were processed

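The authors deposited scanned intensity values from Agilent Feature Extraction 8.1.1.1, as the submitters' processing notes and, per the file headers, the files themselves say. Each scan file further gives the software's corrected log10 of the Cy5 to Cy3 ratio, per the file headers. The deposited values were log10 as well: set against the scanner ratios their slope lay between -1.00 and -0.997 and their r between -0.962 and -0.954, so they hold wild type over mutant. Its centring is unknown; its column medians were -0.03, 0.01, -0.02 and 0.01.

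Mean signals were corrected with normexp (offset 50, which compresses dim ratios) and loess (span 0.3) in limma 3.58.1, under R 4.3.3. Control and outlier spots were left out. Of 41174 probes, 34434 passed the filter (mutant or wild-type channel well above background on each of the 2 arrays of at least 1 line), and the one of highest net signal stood for its gene (23098 genes). RefSeq (GRCm38.p6) gave current names to 13741 genes through accessions, 2478 through symbols and 1363 through synonyms; the remaining 5516 have the array's name. Line means were tested against 0 in lmFit and eBayes, with 1 residual degree of freedom and a prior of 1.63. Levels are channels after loess and Aquantile. The fit was also run on simulated data as a check of the code. There the array errors were independent and the spread between lines was set smaller than here. The run therefore does not measure error rates in these data. Named genes were the members, Dll1, up to 4 list genes at least 2-fold on all 4 arrays, and the 3 nearest patterns, clone names being passed over. Marker genes were named after their values were seen. Alternatives covered background, normalisation, filter, outliers, probe choice, each array left out and the replicate structure. Members and lists were chosen with earlier results of these data known.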

Additional observations from a re-analysis of the deposited data

Results flagged for a closer look

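Vcan and Fn1 are listed because both arrays of one line lay above wild type and both arrays of the other below it. For Vcan, Dll1-5 minus Dll1-3 was -1.22 on the log2 scale, and 1 of its 4 passing probes showed the split. For Fn1 it was -0.80, and with the mean of its passing probes Dll1-5 was at 0.05, so that the signs no longer differed. These differences were not tested, because each line was counted as 1 replicate; the labels do not settle whether its 2 arrays held the same pools. The same pattern of signs was found in 10% of genes.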

How the results depend on the processing

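The number of genes past an adjusted p of 0.05 in limma, 0 here (6349 at an unadjusted p under 0.05), was 912 with a normexp offset of 10 and 345 with the scanner software's ratios. It ran from 0 to 1674 when 1 array was left out: 1674 without Dll1-3 replicate 1, 1660 without Dll1-5 replicate 2, and 0 without either of the others. With the 4 arrays taken as separate samples it was 7739, or 6692 with a replicate block (the number is the dye orientation). Treating the line as random gave 6631. Same-numbered arrays deviated together (correlation 0.70); each line holds both orientations. The block changed no member's call against the 4 separate arrays without it. Members called were Spp1 with the scanner's ratios, Bcan, Tnc and Spp1 with offset 10, these and Ncan without Dll1-3 replicate 1 or Dll1-5 replicate 2, these and Tnr with 4 separate arrays, and Fbln2 too where the line was random. The count of members at least 2-fold on all arrays stayed between 2 and 4: median centring dropped Bcan, and offset 10, the scanner's ratios, the deposited table and leaving out Dll1-5 replicate 2 added Tnc. In Dll1-3 alone the count fell from 4 to 2 with median centring. The count of members at least 2-fold apart between the lines without overlap fell from 3 to 2 with median centring, which dropped Ncan. Averaging all passing probes also gave 2 and dropped Vcan. Hapln1 and Thbs1 changed sign near 0: with 1 array left out, Hapln1 ran from -0.03 to 0.08 (-0.03 without Dll1-3 replicate 2, -0.01 without Dll1-5 replicate 1) and Thbs1 from -0.10 to 0.19 (-0.10 without Dll1-3 replicate 1, -0.06 without Dll1-5 replicate 1). Ncan, Bcan, Tnc, Tnr, Spp1, Fbln2 and Fn1 kept their direction over both lines in every alternative run. Their means ran from -3.75 to -3.25 for Ncan, from -2.16 to -1.58 for Bcan, from 0.44 to 1.66 for Tnc, from 2.81 to 3.88 for Spp1 and from 2.12 to 2.49 for Fbln2. The cause of these shifts was not tested. Probes near background limit Tnr, Hapln1 and Thbs1.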
